A study of Mus musculus with 6 samples.

Results

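The enzymes that make and desaturate long-chain fatty acids were followed through 10 genes, Acly, Acaca, Acacb, Fasn, Elovl6, Scd1, Scd2, Elovl5, Fads1 and Fads2, of 18238 genes tested in injured mouse kidneys. They were found by gene symbol, and for a gene with several probe sets the highest by mean over the 6 arrays was used. All 10 were measured and passed the filter on dim probe sets, which asked for a log2 signal of 5 or more on at least 3 arrays. On all 6 arrays all 10 also exceeded the level under which 90% of negative control probe sets fell, 7.73 to 7.86, which is called background here.

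The 3 m4PTB samples were kidneys of mice given m4PTB at 100 mg per kg. This agent, methyl 4-(phenylthio)butanoate, is known to inhibit histone deacetylases. The 3 vehicle samples were kidneys of mice given 20% 2-(Hydroxypropyl)-b-cyclodextrin in water. The labels name no solvent for the m4PTB samples, so it is not known whether both groups received cyclodextrin. An effect of cyclodextrin was not tested. All were male BALB/c mice aged 10 to 12 weeks in which a kidney had undergone 26 min of ischemia followed by reperfusion and the contralateral kidney had been removed. Treatment followed the injury by 24 h and the kidneys were collected 12 h after it, at day 1.5, so every array is of injured tissue and no uninjured kidney was compared. The submitters picked kidneys of similar injury by serum creatinine, blood urea nitrogen and Kim1 (Havcr1) expression, and the labels call the replicates separate samples and say no more, so the p-values rest on the spread among these samples, part of which may be technical.

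Total RNA was hybridised with 1 array per sample, and the number of arrays limits the precision. The values are log2 signals as deposited, and a difference is the m4PTB mean minus the vehicle mean. Markers of the proximal tubule (15 of 15), the thick ascending limb and distal tubule (7 of 7) and the collecting duct (8 of 8) lay above background on 3 or more arrays, which fits the labelled tissue. Of the 18238 genes tested, 8083 did so. Vehicle replicate 3 stood apart from the other arrays. Its correlation with them over all probe sets with 1 gene symbol, before any filter, was 0.990 to 0.993, against 0.995 to 0.997 among the other 5. Over the genes tested, limma's array weight was 0.242 for it and 0.834 to 2.463 for the others. Values without it are given for differences and list medians that changed sign or moved by more than 1.5 times. For 5 proximal tubule markers only the direction of the change is given.

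Fatty acids are built in the cytosol from citrate that has left the mitochondria. ATP citrate lyase (Acly) splits citrate into acetyl-CoA, acetyl-CoA carboxylase turns acetyl-CoA into malonyl-CoA, and fatty acid synthase (Fasn) joins these units into palmitate. Elongases (Elovl genes) and desaturases (Scd and Fads genes) of the endoplasmic reticulum then lengthen the chain and add double bonds. In liver and fat these genes are known targets of the transcription factor SREBP-1, encoded by Srebf1, and the kidney tubule is known mainly for burning fatty acids rather than making them.

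RefSeq's promoter table for GRCm38.p6 held 7 of the 10 genes, without Scd1, Scd2 and Fads1. The 250 bases before the annotated start are shown for Fasn (chr11:120824548-120824797, minus strand), Fads2 (chr19:10101504-10101753, minus strand), Elovl6 (chr3:129532136-129532385, plus strand) and Elovl5 (chr9:77917115-77917364, plus strand), the first 3 because they are the genes of lowest difference among the 7 and Elovl5 because its difference had the opposite sign. Each runs 5′ to 3′ on the strand of the gene, and capitals mark every match, on either strand, to the motifs named after them.
Fasn: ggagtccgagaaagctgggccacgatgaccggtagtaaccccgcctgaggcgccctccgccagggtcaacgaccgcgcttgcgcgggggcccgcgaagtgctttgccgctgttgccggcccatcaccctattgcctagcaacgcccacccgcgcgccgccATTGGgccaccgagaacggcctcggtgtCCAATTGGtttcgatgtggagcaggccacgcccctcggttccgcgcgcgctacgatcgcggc
Fads2: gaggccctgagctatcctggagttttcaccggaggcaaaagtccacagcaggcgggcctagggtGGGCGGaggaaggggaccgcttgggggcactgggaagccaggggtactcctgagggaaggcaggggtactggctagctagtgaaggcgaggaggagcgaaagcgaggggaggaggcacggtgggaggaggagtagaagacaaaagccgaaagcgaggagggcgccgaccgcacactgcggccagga
Elovl6: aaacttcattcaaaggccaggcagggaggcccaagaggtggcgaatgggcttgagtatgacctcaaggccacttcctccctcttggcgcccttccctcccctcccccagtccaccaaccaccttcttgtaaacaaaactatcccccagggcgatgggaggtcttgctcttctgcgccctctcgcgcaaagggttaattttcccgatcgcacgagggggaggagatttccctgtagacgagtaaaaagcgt
Elovl5: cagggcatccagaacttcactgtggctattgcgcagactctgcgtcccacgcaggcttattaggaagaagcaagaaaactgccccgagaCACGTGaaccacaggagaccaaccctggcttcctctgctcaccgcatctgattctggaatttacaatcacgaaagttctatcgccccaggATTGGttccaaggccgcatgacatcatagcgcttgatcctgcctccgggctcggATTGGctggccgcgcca
The motifs searched on both strands, over 250 bases before and 50 after the start, were TCACNCCAC, the consensus of the sterol regulatory element bound by SREBP proteins, its variant with the letters TCACNCGAC, the E-box CACGTG, the CCAAT box, which is bound by NF-Y, and GGGCGG, the GC box bound by Sp1. The sterol element consensus was found in 0 of the 7 promoters and in 1.24% of the 32851 promoters of the table, and its variant in 0 of the 7 and in 0.31% of the table. The E-box stood in Elovl5 alone of the 7, at position -161 from the start, and in 7.15% of all promoters. The CCAAT box stood in 4 of the 7 (57.1%) and in 37.4% of all promoters. In Fasn it occurred at positions -90, -62 and -59, the last 2 overlapping on opposite strands, and in Elovl5 at -71 and -17. The GC box stood in Fads2, at -186, and in Acly, 2 of the 7 (28.6%), against 35.7% of all promoters. Elovl6 held none of these letters in this window. A match is only a description of the sequence, and these data bear on no binding.

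The enzymes were on balance lower in the m4PTB kidneys, with Scd2 lowest, but no gene passed the test. Of the 10 genes, 8 had a difference below 0, against 45.5% of all genes tested, and 2 (Acacb and Elovl5) a difference above 0. Their median difference was -0.11, against 0.01 for all genes tested. Over the 8083 genes above background on 3 or more arrays, 34.0% lay below 0 and the median was 0.04. None of the 10 was called by limma at an adjusted p under 0.05 (Benjamini-Hochberg over all 18238 genes), and neither was any other gene (0.0%), the smallest adjusted p of any gene being 0.495. At an unadjusted p under 0.05, Scd2 and Fads2 were lower, 2 of 10 against 2.56% of all genes, and 0 of 10 were higher against 4.67%. Over all genes 852 were higher and 466 lower at that threshold, a split that became 441 higher and 1064 lower once each array's median was subtracted. The 3 m4PTB arrays lay entirely below the 3 vehicle arrays for Scd2 and Elovl6, 2 of 10 against 5.21% of all genes, and entirely above them for 0 of 10 against 9.38%. In whole tissue, fewer cells of a type and less RNA per cell cannot be told apart.

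**Figure D1:**
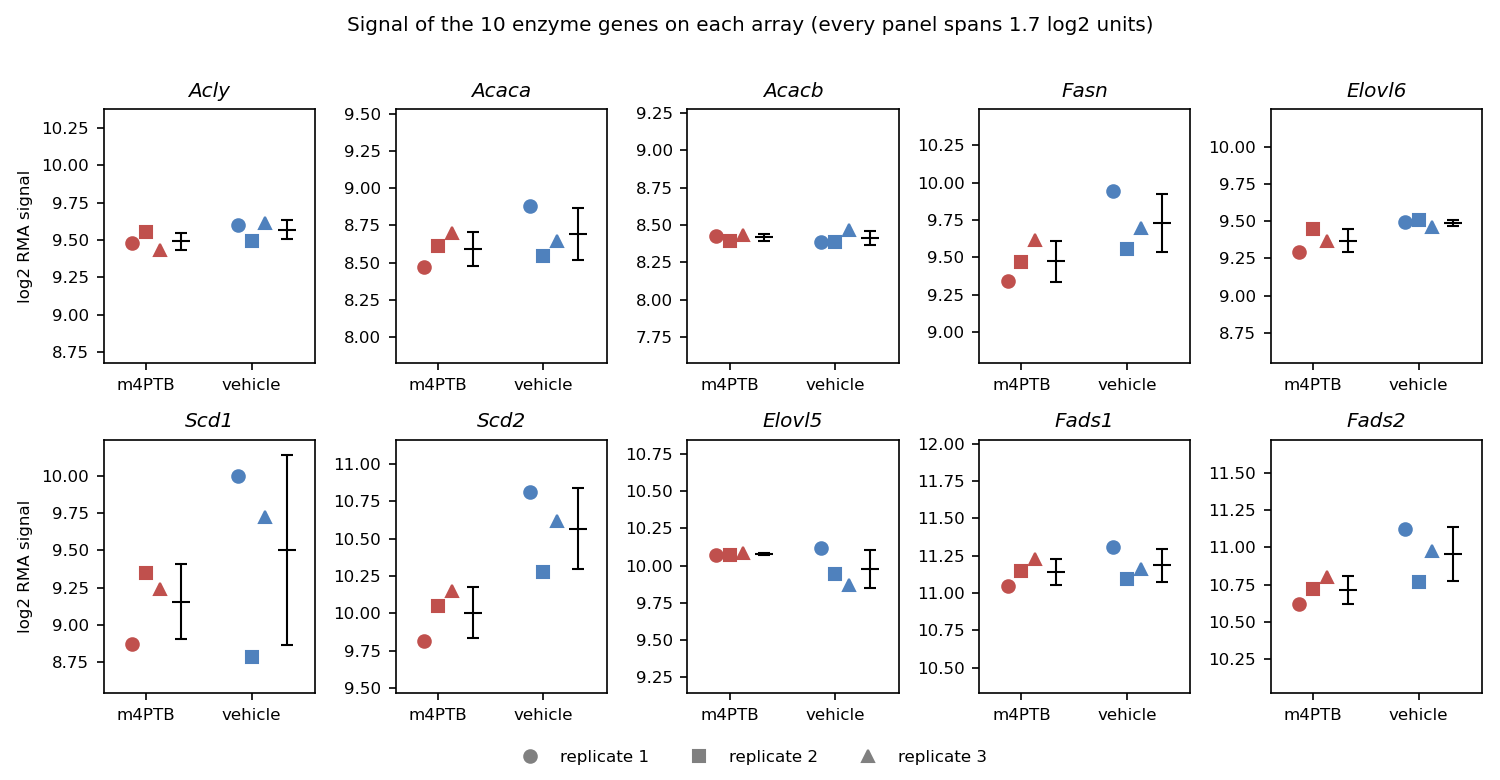
Signal of each of the 10 genes on each array (y axis, log2 RMA signal, every panel spanning the same number of log2 units), with m4PTB arrays in red and vehicle arrays in blue and the mean with SD beside each group (n = 3). The groups are apart for Scd2 and Elovl6, and vehicle replicate 2 (square) lies under at least 2 of the 3 m4PTB arrays for Scd1, Acaca, Acacb, Elovl5 and Fads1.

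Acly, the enzyme that supplies cytosolic acetyl-CoA, had signals of 9.48, 9.55 and 9.44 in m4PTB replicates 1 to 3 and of 9.60, 9.50 and 9.62 in vehicle replicates 1 to 3. The groups overlapped, since vehicle replicate 2 lay below m4PTB replicate 2. The means were 9.49 ± 0.06 in m4PTB kidneys and 9.57 ± 0.06 in vehicle kidneys (SD, n = 3 each), a difference of -0.08 ± 0.07 (SE) with an adjusted p of 0.760 by limma. Without m4PTB replicate 3 the difference was -0.05.

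The carboxylases are a pair of isoforms. Acaca makes the malonyl-CoA used for synthesis, and Acacb sits at the mitochondrial surface, where its malonyl-CoA restrains the import of fatty acids for oxidation. Acaca had signals of 8.47, 8.61 and 8.70 in m4PTB kidneys and of 8.88, 8.55 and 8.65 in vehicle kidneys. The highest value was vehicle replicate 1 and the other 5 arrays were mixed. The difference was -0.10 ± 0.10 (SE) with an adjusted p of 0.785 by limma, and it was -0.0037 without vehicle replicate 1, -0.17 without vehicle replicate 2, -0.04 without m4PTB replicate 1 and -0.15 without m4PTB replicate 3. The other probe set of Acaca, not used in the test, read 7.54, 7.58 and 7.60 in m4PTB kidneys and 7.93, 7.40 and 7.41 in vehicle kidneys, a difference of -0.0071. Both probe sets were highest on vehicle replicate 1.

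Acacb had the difference nearest to 0 of the 10 genes, with signals of 8.43, 8.39 and 8.43 in m4PTB kidneys and 8.38, 8.39 and 8.47 in vehicle kidneys. The arrays of both groups were mixed throughout. The difference was 0.0044 with a 95% interval of -0.15 to 0.15 and an adjusted p of 0.990 by limma. Its sign turned when array medians were subtracted (-0.0529) and under cyclic loess (-0.0505), and it was 0.0312 without vehicle replicate 3, so no direction can be given to it.

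Fasn, the multifunctional synthase that releases palmitate, had signals of 9.34, 9.47 and 9.62 in m4PTB kidneys and of 9.94, 9.56 and 9.70 in vehicle kidneys. The groups overlapped at a single point, m4PTB replicate 3 lying above vehicle replicate 2. The means were 9.48 ± 0.14 in m4PTB kidneys and 9.73 ± 0.20 in vehicle kidneys (SD, n = 3 each), a ratio of 0.837. The difference of -0.26 had a standard error of 0.12, a 95% interval of -0.52 to 0.01 and an adjusted p of 0.685 by limma, and the exact permutation test gave p = 0.2 (two-sided, smallest possible 0.1). It was -0.15 without vehicle replicate 1 and -0.27 without vehicle replicate 3.

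Elovl6 extends palmitate to stearate, the step between Fasn and the stearoyl-CoA desaturases. Its signals were 9.29, 9.45 and 9.37 in m4PTB kidneys and 9.49, 9.51 and 9.46 in vehicle kidneys. All 3 m4PTB arrays were below all 3 vehicle arrays, the nearest being 9.45 for m4PTB replicate 2 and 9.46 for vehicle replicate 3. The vehicle arrays spanned 0.04, and the m4PTB arrays 0.15. The difference was -0.12 ± 0.07 (SE), with a 95% interval of -0.28 to 0.04 and an adjusted p of 0.695 by limma, and the exact permutation p was 0.1, the smallest that 3 against 3 arrays can give.

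The stearoyl-CoA desaturases put the first double bond into stearate and palmitate. Scd1 is the main isoform of liver and fat, and Scd2 is known for its high expression in brain and in the newborn. Scd2 had signals of 9.81, 10.05 and 10.15 in m4PTB kidneys and of 10.81, 10.28 and 10.62 in vehicle kidneys. Every m4PTB array was below every vehicle array, and the nearest were m4PTB replicate 3 and vehicle replicate 2. The means were 10.00 ± 0.17 in m4PTB kidneys and 10.57 ± 0.27 in vehicle kidneys (SD, n = 3 each), a ratio of 0.677. The difference of -0.56 had a standard error of 0.15 and a 95% interval of -0.90 to -0.23, and 9 of the 18238 genes had a lower one. The unadjusted p was 0.00502, the 153rd smallest, and limma's adjusted p was 0.598, while the exact permutation p was 0.1, the smallest possible. Over the 14 alternative settings the difference ranged from -0.71, without vehicle replicate 2, to -0.44, without vehicle replicate 1, and the smallest adjusted p by limma was 0.178.

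Scd1 had signals of 8.87, 9.35 and 9.24 in m4PTB kidneys and of 10.00, 8.78 and 9.72 in vehicle kidneys. Its lowest and its highest value were both vehicle arrays, replicates 2 and 1. These spanned 1.22 log2 units, the widest range of the 10 genes, and the m4PTB arrays spanned 0.48. The difference of -0.35 had a standard error of 0.29, a 95% interval of -1.02 to 0.32 and an adjusted p of 0.741 by limma. It was -0.71 without vehicle replicate 2 (unadjusted p 0.00294, adjusted p 0.276 by limma), -0.10 without vehicle replicate 1, -0.20 without m4PTB replicate 1, -0.24 without vehicle replicate 3, and -0.07 with array weights. The size of the Scd1 difference therefore depended on single arrays, and its interval holds both 0 and the value of Scd2.

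**Figure D2:**
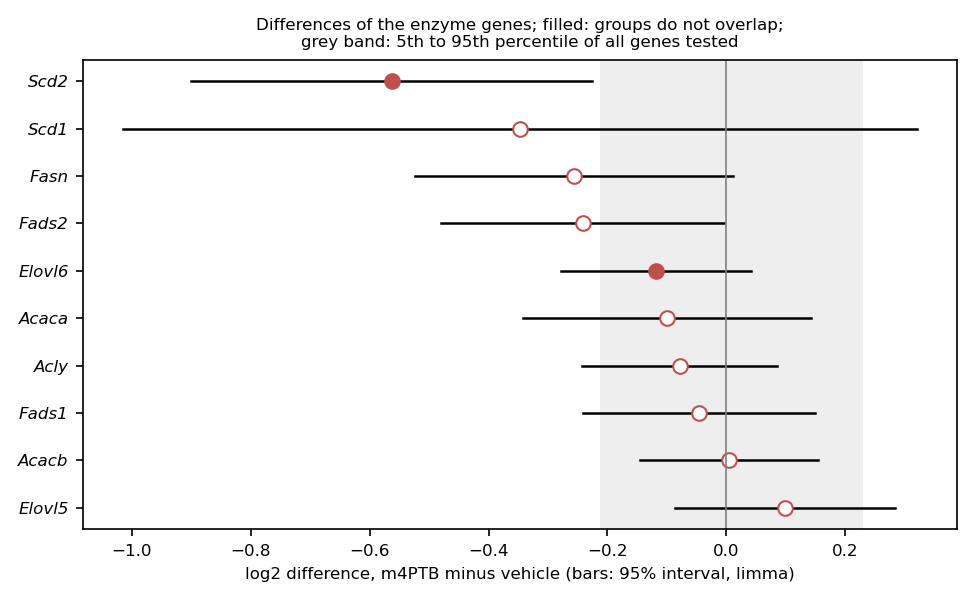
Difference of each gene, m4PTB minus vehicle (x axis, log2), with its 95% interval from limma, from Scd2 to Elovl5; filled points mark genes whose groups did not overlap, and the grey band runs from the 5th to the 95th percentile of all genes tested, -0.21 to 0.23. Scd2, Scd1, Fasn and Fads2 have their points left of the band, and the intervals of Scd2 and Fads2 alone leave out 0.

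The polyunsaturated branch lengthens and desaturates linoleic and linolenic acid taken from the diet. Fads2 encodes the desaturase that opens this branch, Elovl5 lengthens its product, and Fads1 encodes the desaturase that yields arachidonic acid. Fads2 had signals of 10.62, 10.72 and 10.80 in m4PTB kidneys and of 11.12, 10.77 and 10.97 in vehicle kidneys. Vehicle replicate 2 lay just below m4PTB replicate 3, and the groups were otherwise apart. The means were 10.71 ± 0.09 in m4PTB kidneys and 10.96 ± 0.18 in vehicle kidneys (SD, n = 3 each), a ratio of 0.846. The difference of -0.24 had a standard error of 0.10 and a 95% interval of -0.48 to -0.0038. Its unadjusted p was 0.0472, its adjusted p by limma 0.685 and its exact permutation p 0.2. Without vehicle replicate 1 the difference was -0.16, with an unadjusted p of 0.161 by limma.

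Fads1, which acts after Fads2 and Elovl5, had signals of 11.05, 11.15 and 11.22 in m4PTB kidneys and of 11.31, 11.09 and 11.16 in vehicle kidneys. The arrays of the groups were mixed, with m4PTB replicate 1 lowest and vehicle replicate 1 highest. The difference was -0.05 ± 0.08 (SE) with an adjusted p of 0.880 by limma, and it was 0.0008 without m4PTB replicate 1 and 0.0146 without vehicle replicate 1.

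Elovl5 had the highest difference of the 10. Its signals were 10.07, 10.07 and 10.08 in m4PTB kidneys and 10.12, 9.95 and 9.87 in vehicle kidneys. The m4PTB arrays lay within 0.01 of each other and between vehicle replicates 1 and 2. The difference was 0.10 ± 0.08 (SE), with a 95% interval of -0.09 to 0.28 and an adjusted p of 0.738 by limma. It was 0.17 without vehicle replicate 1 and 0.05 without vehicle replicate 3.

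The genes of lowest difference also varied most between the vehicle arrays, whose range was 1.22 for Scd1, 0.54 for Scd2, 0.39 for Fasn and 0.36 for Fads2, against 0.34 or less for the other 6 genes. The SD was smaller in m4PTB than in vehicle kidneys for 9 of the 10 genes, Elovl6 being the exception, a count with no test. Relative to each gene's mean over the 6 arrays, the mean of the 10 genes was -0.18, -0.05 and -0.02 in m4PTB replicates 1 to 3 and 0.24, -0.09 and 0.10 in vehicle replicates 1 to 3. The groups overlapped in this mean, because vehicle replicate 2 lay below m4PTB replicates 2 and 3. Averaged by group it was -0.08 ± 0.09 in m4PTB kidneys and 0.08 ± 0.17 in vehicle kidneys (SD, n = 3 each). The lowest value of 6 genes was on m4PTB replicate 1, and the highest value of 7 genes on vehicle replicate 1. On vehicle replicate 2, 9 of the 10 genes were below their own mean, against 1 on vehicle replicate 1 and 2 on vehicle replicate 3.

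**Figure D3:**
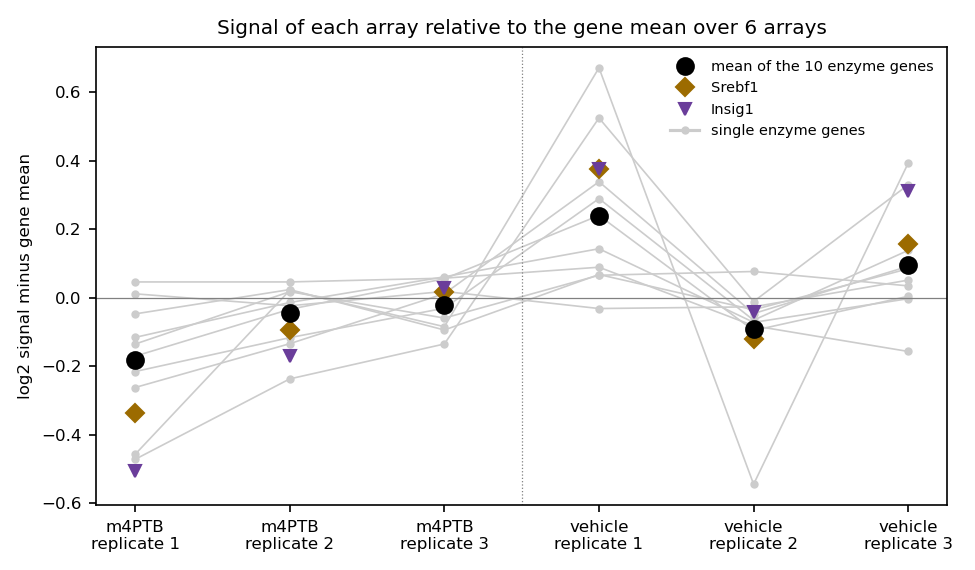
Signal on each array minus the gene's mean over the 6 arrays (y axis, log2), for single enzyme genes (grey, lines joining the points of a gene), the mean of the 10 (black) and the regulators Srebf1 and Insig1 (coloured). The mean of the 10 is lowest on m4PTB replicate 1 (-0.18) and highest on vehicle replicate 1 (0.24), with vehicle replicate 2 (-0.09) among the m4PTB arrays.

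Among the other 18228 genes, Srebf1 itself had the pattern most like the mean of the 10. Its Pearson r with that mean was 0.991 and its Spearman rho 1.0 over 6 arrays, given as a description, since the 10 genes share the arrays, the group difference enters r and the search ran over all genes. Srebf1 had signals of 8.25, 8.49 and 8.60 in m4PTB kidneys and of 8.96, 8.46 and 8.74 in vehicle kidneys. The order of its arrays was that of the mean of the 10, with m4PTB replicate 1 lowest, vehicle replicate 2 next and vehicle replicate 1 highest. Its difference was -0.28 ± 0.14 (SE) with an adjusted p of 0.685 by limma. The next 4 genes by r, each at 0.987, were Ass1 (argininosuccinate synthase), A130050O07Rik, which lay under background on all arrays, Ppt1 (a lysosomal palmitoyl-protein thioesterase) and Hgd (homogentisate dioxygenase).

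The regulators of these enzymes were split. SREBP precursors are held in the endoplasmic reticulum by INSIG proteins and escorted by SCAP to the proteases that release them, while ChREBP (Mlxipl) with its partner Mlx answers to sugar and LXR alpha (Nr1h3) to oxysterols. Of 16 such genes, 0 were called, 7 were higher and 9 lower, with a median difference of -0.0035 (-0.0135 without vehicle replicate 3). Of the 16, 2 were lower without overlap, Srebf2 and Mlx, against 5.21% of all genes. Only Nr1h3, 1 of 16, was higher without overlap, against 9.38% of all genes. Insig1, also a target of SREBP, had signals of 9.76, 10.10 and 10.29 in m4PTB kidneys and of 10.64, 10.22 and 10.58 in vehicle kidneys, with a single overlap between m4PTB replicate 3 and vehicle replicate 2. Its difference was -0.43 ± 0.16 (SE), with an unadjusted p of 0.0257 and an adjusted p of 0.679 by limma. Srebf2, which encodes the SREBP that mainly serves cholesterol synthesis, had 9.29, 9.45 and 9.41 in m4PTB kidneys and 9.53, 9.56 and 9.53 in vehicle kidneys. Its groups did not overlap, and its difference was -0.16 with an adjusted p of 0.685 by limma. Nr1h3 was without overlap in the other direction, with 9.08, 9.12 and 9.14 in m4PTB kidneys and 9.05, 8.99 and 9.01 in vehicle kidneys, a difference of 0.09 that did not pass (adjusted p 0.711 by limma). Mlxipl differed by -0.03 with overlapping groups, and Mlx by -0.11 without overlap.

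A list of 12 genes around the carboxylases and the synthase held regulators of these enzymes and, such as Aacs, enzymes of nearby steps. Of the 12, 0 were called, 5 were higher and 7 lower, with a median of -0.02, which was -0.05 without vehicle replicate 3. Mid1ip1, which promotes the assembly of active carboxylase, differed by -0.17 with overlapping groups. Its partner Thrsp (Spot 14) lay under background on all arrays, as did Trib3, a pseudokinase known to promote the breakdown of the carboxylase, which was lower without overlap by -0.26. Aacs, which makes acetoacetyl-CoA in the cytosol, differed by -0.28 with overlap, m4PTB replicate 1 at 8.67 lying far below the other 5 arrays. The AMP-activated kinase catalytic subunits Prkaa1 and Prkaa2 differed by 0.02 and 0.04, and by -0.05 and 0.03 without vehicle replicate 3.

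Supply of acetyl-CoA and NADPH had a median of 0.03 over 13 genes, of which 9 were higher, 4 lower and 0 called, and the median was -0.01 without vehicle replicate 3. The genes of smallest unadjusted p were Slc16a1, a monocarboxylate transporter, at 0.26, and the pentose phosphate genes Pgd (0.13), G6pdx (0.11, or 0.07 without vehicle replicate 3) and Taldo1 (0.08), with overlapping groups in each case.

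Other enzymes of elongation and desaturation held single genes of larger difference in both directions. Of 19 listed, 18 were tested and Elovl3 was under the filter on dim probe sets. Of the 18, 5 were higher and 13 lower, with 0 called and a median of -0.05. Elovl2, an elongase of polyunsaturated chains, had 9.54, 9.57 and 9.47 in m4PTB kidneys and 9.26, 9.10 and 8.63 in vehicle kidneys. Every m4PTB array was above every vehicle array, with vehicle replicate 3 far below the rest, and the difference of 0.53 had a standard error of 0.15 and an adjusted p of 0.626 by limma. Without vehicle replicate 3 the Elovl2 difference was 0.34, still without overlap. Hacd4, a 3-hydroxyacyl-CoA dehydratase, was higher without overlap by 0.34 and lay above background on 2 arrays. Fads6 was lower without overlap by -0.28, and so was Scd3, a desaturase gene related to Scd1, by -0.21, with all its signals under background.

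**Figure D4:**
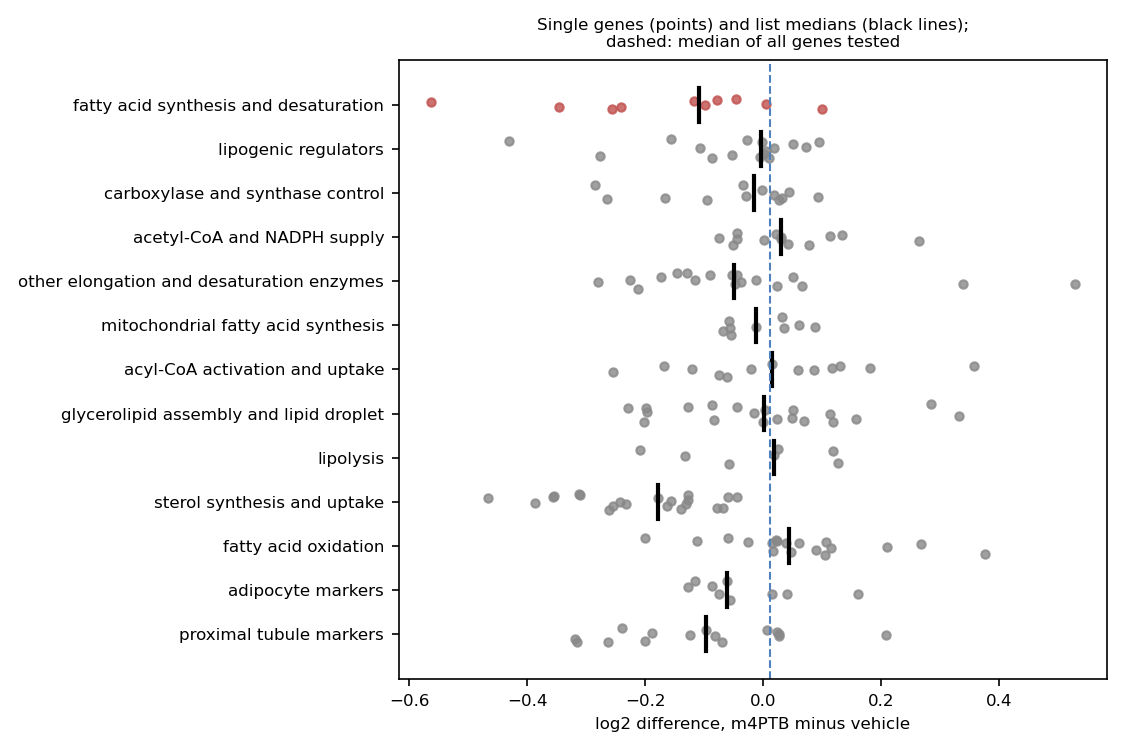
Difference of each gene, m4PTB minus vehicle (x axis, log2), for the 10 enzyme genes (red) and for pathway and marker lists (grey), with list medians as black lines and the median of all genes tested (0.01) dashed. The enzyme genes have a median of -0.11 between those of sterol synthesis (-0.18) and of fatty acid oxidation (0.04).

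Beside the 10 enzymes, sterol synthesis and uptake, the other branch under SREBP control, had 21 of 21 genes lower with a median of -0.18. Over all genes tested, 45.5% lay below 0. Fatty acid oxidation had 14 of 18 genes higher and 4 lower with a median of 0.04. All 18 oxidation genes lay above background on 3 or more arrays. Over the 8083 genes that did so, the median was also 0.04 and 34.0% lay below 0, so the oxidation median was near that of genes above background. Neither list held a called gene. For the sterol genes the groups did not overlap in 9 of 21, all lower, against 5.21% of all genes, with Msmo1 at -0.47 and Fdft1 at -0.39. For oxidation, 2 of 18 were lower without overlap, Acads by -0.20 (-0.13 without vehicle replicate 3) and Hadh by -0.11, and 1 of 18 was higher without overlap, Acot1 by 0.27, against 9.38% of all genes. The medians without vehicle replicate 3 were -0.13 for the 10 enzymes, -0.17 for sterol synthesis and 0.03 for oxidation. The difference between these lists was not tested.

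Markers of some cell types differed between the groups as well, with no gene called. The mean of 15 proximal tubule markers was 11.94 to 11.97 in m4PTB kidneys and 12.05 to 12.09 in vehicle kidneys, and these groups did not overlap. Of the 15, 10 were lower and 0 were called, with a median of -0.10. The markers of smallest unadjusted p included Hao2 and Slc22a8, each at -0.32, and Miox at -0.24. The other 5 were Slc5a12 at 0.21, which transports lactate, and Slc5a2, Cubn, Lrp2 and Slc13a3 at 0.0069 to 0.03. Slc5a12 was far lower on vehicle replicate 3 (11.20) than on vehicle replicates 1 and 2 (11.56 and 11.63). Without vehicle replicate 3 its difference was smaller, and those of Slc5a2, Cubn, Lrp2 and Slc13a3 were below 0. The 7 markers of the thick ascending limb and distal tubule were all lower (median -0.11), with groups that overlapped in their mean. The 8 of the collecting duct were also all lower (median -0.10). Their mean was 9.01 to 9.19 in m4PTB kidneys and 9.21 to 9.26 in vehicle kidneys, again without overlap. The mean of 9 proliferation markers was 9.12 to 9.59 in m4PTB kidneys and 8.36 to 9.02 in vehicle kidneys, with a median difference of 0.82 (0.56 without vehicle replicate 3) and all 9 higher. The part of these cell types in the enzyme differences was not tested.

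Adipocytes, which make these enzymes in quantity, were looked for by 10 markers. Of these, 8 tested genes (Plin1, Plin4, Ucp1, Lep, Retn, Cidec, Cfd and Pparg) were under background on all 6 arrays. So were 9556 of the 18238 genes tested, and a signal under this level does not show that a gene is silent. Adipoq was too dim for the test, at 4.81 to 4.99 in m4PTB kidneys and 4.86 to 5.02 in vehicle kidneys. Fabp4, which blood vessels and macrophages also express, was above background, with 9.13, 8.52 and 8.60 in m4PTB kidneys and 8.71, 8.62 and 8.43 in vehicle kidneys. The mean of the 9 tested markers was 6.30 to 6.40 in m4PTB kidneys and 6.32 to 6.53 in vehicle kidneys, with 3 higher, 6 lower and a median of -0.06, which was 0.03 without vehicle replicate 3.

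The remaining marker lists had medians above 0 that were smaller without vehicle replicate 3. All 10 macrophage markers were higher with a median of 0.12 (0.05 without that array), 3 of them above background on 3 or more arrays, and 5 of 8 fibroblast markers were higher with a median of 0.11 (0.0058 without that array). Of 7 endothelial markers 5 were higher with a median of 0.04 (0.02 without it). Of 9 tubular injury markers 7 were higher, with a median of 0.22 (0.10 without it). Havcr1, by which the kidneys had been chosen, had 11.97, 11.67 and 11.54 in m4PTB kidneys and 11.61, 12.03 and 11.50 in vehicle kidneys, a difference of 0.01 that was -0.09 without vehicle replicate 3. Lcn2, a secreted protein of injured tubules, had 11.26, 10.63 and 10.46 in m4PTB kidneys and 10.45, 10.58 and 9.35 in vehicle kidneys, a difference of 0.66 with overlapping groups that was 0.27 without vehicle replicate 3. The array lowest for the enzymes, m4PTB replicate 1, was thus the highest for Lcn2, and vehicle replicate 2 was the highest for Havcr1. Vehicle replicate 3 was the lowest for both Lcn2 and Havcr1, whereas the array highest for the enzymes was vehicle replicate 1. Whether the degree of injury has a part in the enzyme values was not tested.

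**Figure D5:**
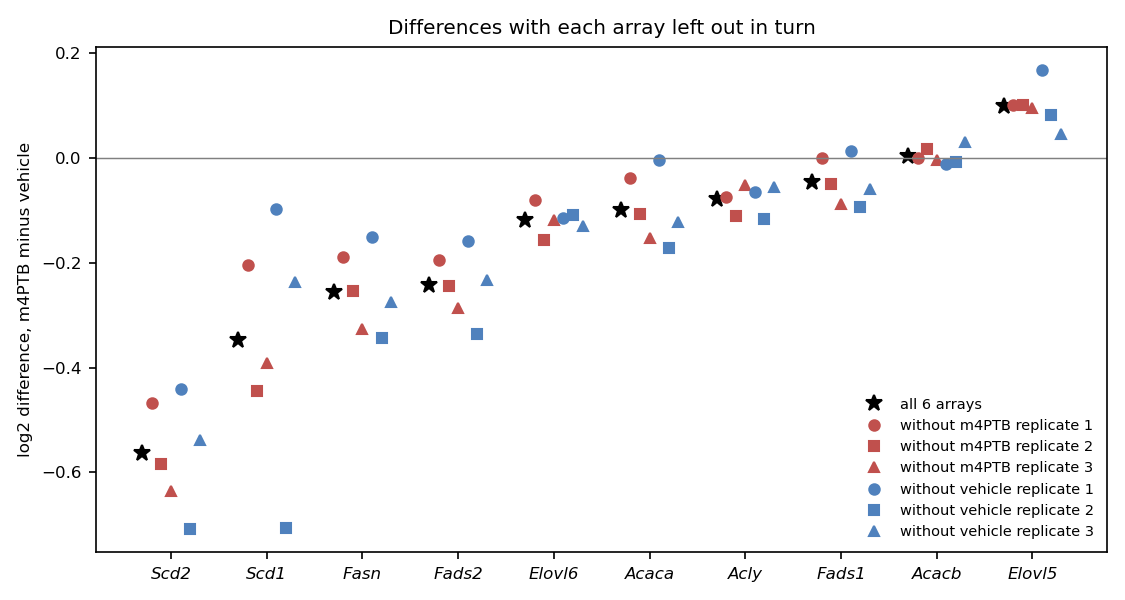
Difference of each gene, m4PTB minus vehicle (y axis, log2), with all 6 arrays (star) and with each array left out in turn (red, m4PTB arrays; blue, vehicle arrays). Without vehicle replicate 1 the differences of Fasn, Fads2, Scd1 and Scd2 are nearest to 0 among the fits that leave out an array, without vehicle replicate 2 they are farthest from it, and Scd2 stays between -0.71 and -0.44.

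Leaving out single arrays moved the 4 genes of lowest difference in the same manner, which was not particular to them. Acaca, Acly, Fads1 and Elovl5 also had a lower difference without vehicle replicate 2 than without vehicle replicate 1. Elovl6 and Acacb did not. Without vehicle replicate 1, the array of highest enzyme signals, the differences of Scd2, Scd1, Fasn and Fads2 were -0.44, -0.10, -0.15 and -0.16. Without vehicle replicate 2, where 9 of the 10 genes were below their mean, they were -0.71, -0.71, -0.34 and -0.34, and the groups did not overlap for 6 of the 10 genes, all lower, against 10.6% of all genes in that fit. That count was 4 of 10 without m4PTB replicate 3, against 9.75% of all genes. No gene was called in any of these fits. Scd2, Scd1, Fasn, Fads2, Elovl6, Acaca and Acly kept a difference below 0 under all 14 alternatives, and Elovl5 kept one above 0, while Acacb and Fads1 changed sign under some.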

How the data were processed

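Total RNA of 6 injured mouse kidneys was measured on Affymetrix Mouse Gene 1.0 ST arrays. The authors deposited a log2 signal for every probe set. Per the submitters' processing notes, RMA was run in Affymetrix Expression Console 1.1. RMA equalises the distributions of the arrays, so a shift of most genes would not be seen. Groups came from the sample titles. Gene symbols came from the annotation columns of a deposited full table, whose 6 columns of signals name arrays in a way no label matches and were not used. RefSeq's table for GRCm38.p6 replaced 2269 older symbols. The array annotation names another build, so no probe coordinates are given.

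Of 35556 probe sets, those with 1 symbol that reached a log2 signal of 5 on 3 or more arrays were tested, and the brightest represented each gene. The comparison was fitted with limma 3.58.1 in R 4.3.3 without covariates, with Benjamini-Hochberg adjustment of p over 18238 genes. An exact permutation test (two-sided) was run on each member too. The steps were tested on simulated data, and 14 alternatives were run. Deviations of same-numbered arrays from their group means correlated at -0.127, -0.051 and -0.08, and those of differently numbered arrays at -0.039 to 0.151. With 3 arrays per group these values cannot show whether same-numbered arrays were handled together. The labels name no pairs, so the numbers were not treated as pairs in the fit reported, and a fit with them as a block was among the alternatives.

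The 10 members and the lists were chosen with earlier results of these data known. Named were all members, 7 fixed regulators, up to 4 genes of smallest unadjusted p of each other list, all adipocyte markers, Havcr1, Lcn2 and the 5 genes most like the members in pattern. The kinase subunits Prkaa1 and Prkaa2, Mlx, and 5 proximal tubule markers of higher signal in m4PTB kidneys fall outside this rule and were named after their values were seen.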

Additional observations from a re-analysis of the deposited data

How the results depend on the processing

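Limma called 0 of the 10 genes and 0 of all genes tested at an adjusted p under 0.05 in all 14 alternatives, against 1318 genes at an unadjusted p under 0.05 in the fit reported. The median difference of the 10 genes was -0.11 and ranged from -0.17, with array medians subtracted (where the median of all genes was -0.05 and 65.5% of them lay below 0), to -0.07 with array weights. The count at an unadjusted p under 0.05, 2 in the fit reported, was 4 with array medians subtracted and under cyclic loess, 3 with trended and robust variances and with a filter at the negative control level, and 1 with array weights and with no filter. It was 1 with the replicate number as a replicate block, and 1 to 4 when single arrays were left out (4 without vehicle replicate 2). The replicate block changed no call at the adjusted threshold. The count of genes lower without overlap, 2 as reported, was 2 to 6 when single arrays were left out (6 without vehicle replicate 2, 4 without m4PTB replicate 3), where fewer arrays make separation easier. Acacb, at 0.0044, was -0.0529 with medians subtracted and -0.0505 under cyclic loess, and ran from -0.0102 to 0.0312 when single arrays were left out, and Fads1, at -0.05, ran from -0.093 to 0.0146. The cause of these changes was not tested. All 10 genes lay above background on all 6 arrays, and 3 arrays per group limit the precision.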

Other observations

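Neighbouring steps of lipid handling, given here as values, held single genes with groups apart and medians near that of all genes tested (0.01). Uptake and activation of fatty acids had a median of 0.01 over 13 genes, 7 higher and 6 lower, which was -0.03 without vehicle replicate 3. Fabp5, a fatty acid carrier, was higher without overlap by 0.36 but lay under background on all arrays, and Acsl3, an acyl-CoA synthetase of lipid droplets, differed by -0.25 with overlap. Cd36, a fatty acid transporter, differed by 0.18 and Acsl4, which prefers arachidonic acid, by 0.13.

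Glycerolipid assembly and lipid droplet genes had a median of 0.0011 over 20 genes, 10 higher and 10 lower, with Cidea under the filter, and -0.0054 without vehicle replicate 3. Agpat2, which makes phosphatidic acid, was lower without overlap by -0.20 and Gpat3, which acts a step earlier, higher without overlap by 0.28, above background on 1 array. Mogat1 differed by -0.20 and Cideb by -0.23, both with overlap. Lipolysis had a median of 0.02 over 7 genes (0.0094 without vehicle replicate 3), with Pnpla2, the first lipase of triglyceride breakdown, lower without overlap by -0.13 and Lpl at -0.21 with overlap. Mitochondrial fatty acid synthesis, a separate pathway that feeds lipoic acid, had a median of -0.01 over 9 genes (0.01 without vehicle replicate 3), with Oxsm higher without overlap by 0.09. No gene of these lists was called by limma at an adjusted p under 0.05, and 4 of the 49 (Fabp5, Gpat3, Acsl3 and Agpat2), or 8.16%, had an unadjusted p under 0.05, close to the 7.23% of all genes tested.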
